A study of Rattus norvegicus with 4 samples.

Results

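Nppa (ENSRNOG00000008176) and Nppb (ENSRNOG00000008141), the genes of the cardiac natriuretic peptides, were followed in cultured neonatal rat ventricular myocytes. They were chosen by their identifiers, and both were among the 26406 features listed in every library. The files give both genes by identifier alone, and their symbols were assigned together with the choice. The cells came from 2-day-old Sprague Dawley rat hearts and were kept in primary culture, and each of 4 libraries of total RNA was a group of its own. One library came from myocytes transfected with siRNA that targets Chaer, a long noncoding RNA, and then given phenylephrine (siChaer PE), and one from myocytes given a negative control siRNA and then phenylephrine (siNeg PE). The other 2 came from myocytes given the Chaer siRNA without phenylephrine (siChaer) or the control siRNA without it (siNeg). Transfection lasted 6 h in every group and RNA was collected after 48 h, phenylephrine being given at 50 µM. Phenylephrine is an agonist of α1-adrenergic receptors used to make such myocytes grow, and the study asked what Chaer contributes to the transcriptional changes that go with that growth.

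Nppa encodes the precursor of atrial natriuretic peptide and Nppb that of B-type natriuretic peptide. Cardiac myocytes secrete both hormones, which act through the guanylyl cyclase receptor NPR-A to raise cyclic GMP, relax vessels and promote the excretion of salt. Ventricles express Nppa strongly before birth and less in adult life, and both genes are expressed again in ventricular muscle under pressure load or adrenergic stimulation, which makes them standard markers of the fetal gene programme of hypertrophy.

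The genes lie next to each other on rat chromosome 5. In the RefSeq annotation of GRCr8, 0 annotated genes separate Nppb from Nppa and 0 overlap either of them. The pair moved together in every comparison below, and whether the DNA before each start has a part in that was not tested. That DNA is shown, taken from RefSeq's GRCr8 table by symbol, on the plus strand. Capitals mark the letters AGATAA or TGATAA, as read by GATA factors, CATTCC, the M-CAT element of TEAD factors, and TATAAA, on either strand.
Nppa, chr5:163711934-163712183: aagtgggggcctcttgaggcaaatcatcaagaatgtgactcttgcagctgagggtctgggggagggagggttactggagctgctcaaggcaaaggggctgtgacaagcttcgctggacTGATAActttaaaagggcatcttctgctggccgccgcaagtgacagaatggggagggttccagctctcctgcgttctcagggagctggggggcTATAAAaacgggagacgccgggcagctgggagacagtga
Nppb, chr5:163699758-163699954: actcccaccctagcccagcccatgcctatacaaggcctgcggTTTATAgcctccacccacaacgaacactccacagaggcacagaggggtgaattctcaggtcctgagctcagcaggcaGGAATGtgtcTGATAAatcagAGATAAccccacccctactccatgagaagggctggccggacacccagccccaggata
The Nppa sequence holds the 250 bases before the start. The Nppb sequence runs from 250 to 54 bases before the start used by the table, because the annotated gene begins just after it.

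Both promoters held TATAAA and TGATAA once each, and that of Nppb also held AGATAA and CATTCC. Nppa had TATAAA at 39 to 34 bases before the start and TGATAA at 132 to 127 bases. Nppb had TGATAA at 121 to 116 bases, AGATAA at 110 to 105 bases and, on the other strand, CATTCC at 131 to 126 bases and TATAAA at 208 to 203 bases. These Nppb positions count from a start that lies inside the annotated gene, so they are not comparable with those of Nppa. No matches overlapped. Of 33469 rat promoters searched over the same 250 bases, 12.9% held TATAAA, 12.1% held CATTCC, 10.3% held AGATAA and 7.97% held TGATAA, the last being added to the search after the sequences were read. The windows of both genes held 0 matches to the AP-1 letters TGANTCA, the Nkx2-5 letters TNAAGTG and the CArG box read by serum response factor, which 6.34%, 9.89% and 1.497% of all promoters held. Exact letters alone were counted, so these 0 matches do not show that similar sites are absent. Another form was searched for the GATA letters only. These matches describe letters and say nothing of which factor was bound in these cells.

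The libraries held between 33944988 and 39155363 reads in listed features. Levels are given as RPKM, the reads of a gene per kilobase of its length, scaled to library depth, which allows the pair to be compared per length, their gene models being 814 bp for Nppa and 628 bp for Nppb. Each group had 1 library, whose culture the labels do not set apart from the others, so no value has an error from replicate cultures and no test between groups was possible. Intervals in parentheses are 95% intervals that cover counting error alone, and no use of molecular identifiers is stated, so a read need not be an independent molecule. Of the listed features, 0 of 26405 Ensembl identifiers could be paired with a symbol through the reference table, so markers of myocytes and of other heart cells, natriuretic peptide receptors and other genes of the pathway were not analysed here. In bulk RNA, more myocytes and more of a transcript per myocyte cannot be told apart. Chaer was not among the listed names, and its level was not analysed here.

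Nppa was high in every library and highest where both agents were given. It stood at 4915 RPKM in siChaer PE (4891 to 4939), at 3578 RPKM in siNeg PE (3557 to 3600.3), at 1002 RPKM in siChaer (990.8 to 1012) and at 429.5 RPKM in siNeg (422 to 437), from 163366, 102864, 32933 and 12933 reads in that order. Both libraries with phenylephrine were thus above both without it, and within each pair the Chaer siRNA library was the higher. In the order of all features by RPKM, Nppa took place 13 in siChaer PE, 18 in siNeg PE, 55 in siChaer and 112 in siNeg.

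Nppb had the same order of libraries at lower levels. It stood at 2406 RPKM in siChaer PE (2387 to 2425), at 1636 RPKM in siNeg PE (1619.6 to 1653), at 401 RPKM in siChaer (394 to 409) and at 163 RPKM in siNeg (157 to 168), from 61703, 36291, 10180 and 3778 reads in that order. For neither gene did the counting intervals of neighbouring libraries overlap. Nppb took place 25 in siChaer PE, 36 in siNeg PE, 139 in siChaer and 356 in siNeg.

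**Figure D1:**
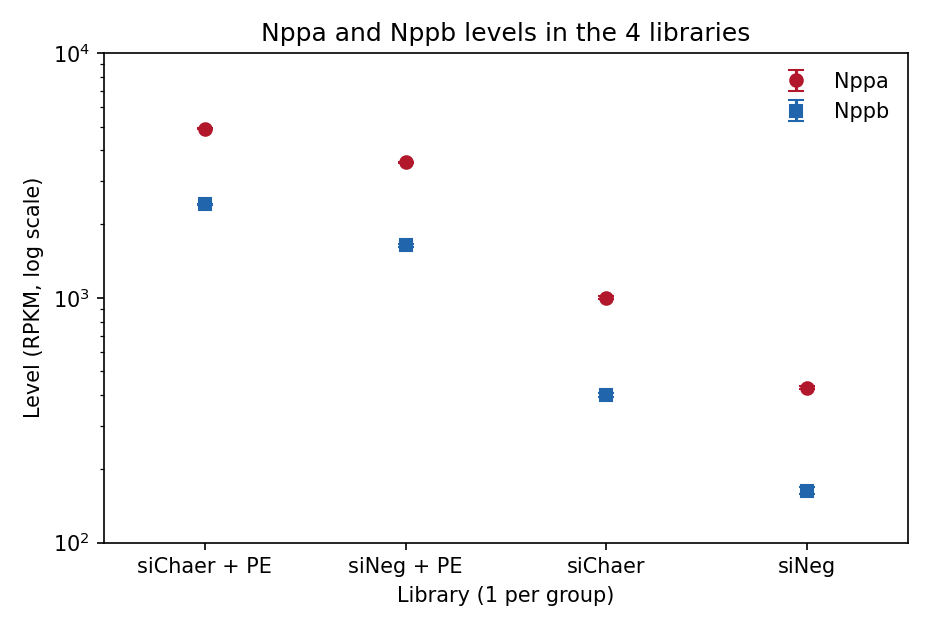
Level of Nppa (circles) and Nppb (squares) in each of the 4 libraries, in RPKM on a log scale, with PE for phenylephrine. Bars are 95% counting intervals, mostly smaller than the symbols; both genes are highest in siChaer + PE (4915 and 2406 RPKM) and lowest in siNeg (429.5 and 163 RPKM).

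The share of sequencing taken by the pair followed the same order. Together they took 0.575% of the reads in listed features in siChaer PE, 0.410% in siNeg PE, 0.111% in siChaer and 0.0472% in siNeg. Nppa had the larger part in each library, with 0.417% of the reads in siChaer PE (exact binomial interval 0.415% to 0.419%) and 0.0365% in siNeg (0.0359% to 0.0372%). Whether the counting separated reads of the opposite strand is not given in the sources used here.

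Phenylephrine with control siRNA showed the response of myocytes in which Chaer was not targeted. Nppa was 8.33-fold higher (8.18 to 8.49) in siNeg PE than in siNeg, and Nppb 10.1-fold higher (9.73 to 10.4). On the log2 scale of (RPKM + 1) these ratios were 3.06 and 3.32, against a median of -0.07 and an SD of 0.35 over the 12226 features whose mean reached 1 RPKM. Nppb ranked 1 and Nppa ranked 3 of those features, and over the other pseudocounts and scalings tried their ranks were 1 to 2 and 2 to 7. Both of the 2 genes were at least 2-fold higher, as were 1.12% of all features, while 0.605% were at least 2-fold lower. Higher features made up 64.9% of all those at least 2-fold apart, and 78.2% under TMM scaling, which trims the most changed features before it sets the scale. Over all alternatives tried, that share ran between 46.9% (by a 1.5-fold rule) and 79.6% (with a pseudocount of 5). Among the 716 features whose mean reached 100 RPKM, a bound set after the values were seen, 27 were at least 2-fold higher. Nppb and Nppa held places 1 and 2 of them.

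With Chaer siRNA, the pair was higher with phenylephrine by a smaller factor, and its level with phenylephrine was the highest measured. Nppa was 4.91-fold higher (4.85 to 4.97) in siChaer PE than in siChaer, and Nppb 6.00-fold higher (5.87 to 6.12). The log2 ratios of (RPKM + 1) were 2.29 for Nppa and 2.58 for Nppb, ranks 9 and 3 of 12226, beside a median of -0.10 and an SD of 0.38. Over the other pseudocounts and scalings these ranks were 4 to 17 and 1 to 7. Both genes were again past 2-fold, as were 1.10% of all features, while 0.875% were at least 2-fold lower. Higher features were 55.6% of those at least 2-fold apart, and 72.1% under TMM scaling, with a range between 41.9% (1.5-fold rule) and 72.9% (pseudocount of 5). In this comparison 20 of the 716 abundant features were at least 2-fold higher, Nppb at place 1 and Nppa at place 4.

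Chaer siRNA without phenylephrine showed how the unstimulated myocytes differed between the siRNAs. Nppa was 2.33-fold higher (2.28 to 2.38) in siChaer than in siNeg, and Nppb 2.47-fold higher (2.38 to 2.56). The log2 ratios of (RPKM + 1) were 1.22 and 1.30, ranks 47 and 33 of 12226, with a median of 0.02 and an SD of 0.39 over all features. Over the other pseudocounts and scalings the ranks were 23 to 87 for Nppa and 18 to 61 for Nppb. Both genes passed 2-fold upward, as did 1.02% of all features, and 1.11% passed it downward. Higher features were 47.9% of those at least 2-fold apart, and 35.8% when libraries were scaled by the reads outside the 20 features with most reads. The larger direction turned with a pseudocount of 5, at 59.8%, and with a mean RPKM of at least 5, at 56.5%. Of the 716 abundant features, 16 were at least 2-fold higher, with Nppb at place 5 and Nppa at place 7. The level in siChaer was 28.0% of that in siNeg PE for Nppa and 24.5% for Nppb. As a gain over siNeg, in RPKM, the siChaer level amounted to 18.2% of the phenylephrine gain for Nppa and 16.2% for Nppb. The 2 gains were measured from the same siNeg library.

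Chaer siRNA with phenylephrine showed how the stimulated myocytes differed. Nppa was 1.37-fold higher (1.36 to 1.38) in siChaer PE than in siNeg PE, and Nppb 1.47-fold higher (1.45 to 1.49). On the log2 scale of (RPKM + 1) these were 0.46 and 0.56, ranks 915 and 621 of 12226, or 528 to 1180 and 319 to 830 over the other pseudocounts and scalings, beside a median of -0.03 and an SD of 0.36. In this comparison 0 of the 2 genes reached 2-fold, while 0.998% of all features reached it upward and 0.851% downward. The pair was thus past 2-fold between the siRNAs in unstimulated cells and short of it in stimulated cells. Of the 716 abundant features, 14 were at least 2-fold higher with phenylephrine, with Nppb at place 57 and Nppa at place 74.

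**Figure D2:**
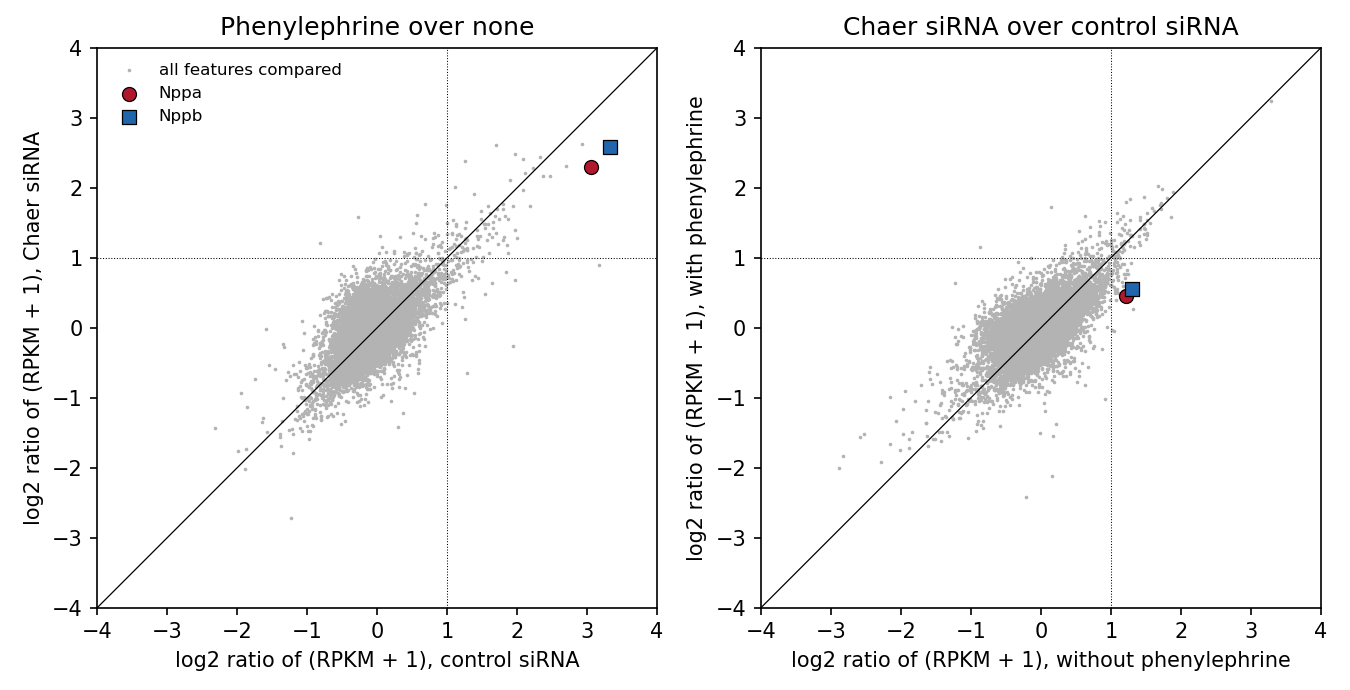
Log2 ratios of (RPKM + 1) for the 12226 features compared (grey), with Nppa (circle) and Nppb (square). Left, phenylephrine over none, with control siRNA across and Chaer siRNA up; right, Chaer siRNA over control siRNA, without phenylephrine across and with it up; dotted lines mark 2-fold and the diagonal equal ratios. Both genes lie far out in the left panel and below the diagonal in both panels.

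The size of the phenylephrine response depended on the scale it was read on. As a fold, it was smaller with Chaer siRNA, by a factor of 0.589 (0.576 to 0.602) for Nppa and 0.596 (0.573 to 0.620) for Nppb. As a gain in RPKM, it was larger with Chaer siRNA. Nppa gained 3913 RPKM with Chaer siRNA and 3149 RPKM with control siRNA, a difference of 764 RPKM (729 to 799). Nppb gained 2005 RPKM with Chaer siRNA and 1474 RPKM with control siRNA, a difference of 531 RPKM (504 to 558). The siChaer level is the divisor of the fold with Chaer siRNA, so its higher value lowers that fold by arithmetic. The end level with Chaer siRNA was still above that of siNeg PE.

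**Figure D3:**
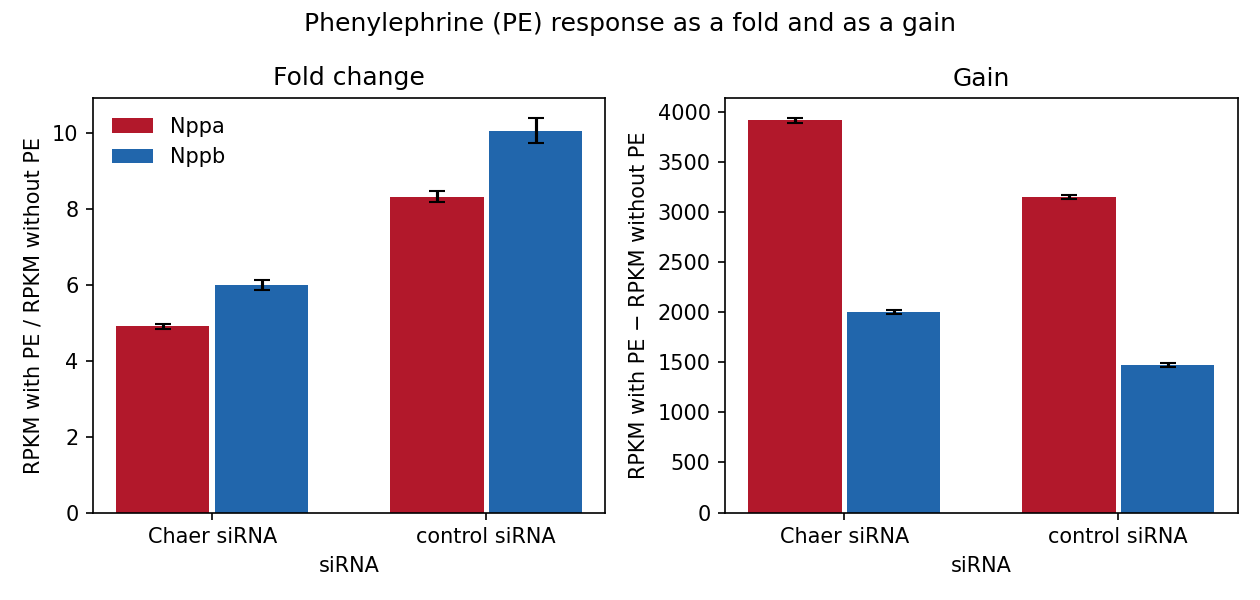
Response of Nppa and Nppb to phenylephrine (PE) with each siRNA, as the ratio of RPKM with and without PE (left) and as the difference in RPKM (right). Bars start at 0 and error bars are 95% counting intervals; the fold is smaller with Chaer siRNA (4.91 and 6.00, against 8.33 and 10.1 with control siRNA) and the gain is larger.

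Set beside simple sums and products of the single effects, siChaer PE lay between them. For Nppa, 4915 RPKM were measured, while adding the 2 single gains to siNeg gave 4150.5 RPKM and multiplying the 2 single folds gave 8344 RPKM. For Nppb, 2406 RPKM were measured, against 1875 RPKM for the sum and 4038 RPKM for the product. Relative to siNeg, siChaer PE was 11.4-fold higher for Nppa and 14.8-fold higher for Nppb. The sum, the product and the change in the phenylephrine response between the siRNAs all rest on the same siNeg library. They are therefore linked and are not separate observations. With 1 library in each group, a departure from the sum or the product could not be tested.

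On the log2 scale of (RPKM + 1), the difference of the phenylephrine ratios, Chaer siRNA minus control siRNA, was -0.76 for Nppa and -0.74 for Nppb. Neither reached 2-fold, a size that 0.221% of all features reached downward and 0.319% upward. Higher differences were 59.1% of those past 2-fold, and 77.4% with scaling by the reads outside the 20 features with most reads. The median over all 12226 features was -0.06 and the SD 0.31, and 0.630% of them had a lower value than Nppa and 0.671% a lower value than Nppb. Among the 716 features whose mean reached 100 RPKM, a bound set after the values were seen, the median was -0.19. There, Nppa and Nppb had the second and the third lowest values, under each of the 3 pseudocounts and each of the 3 other scalings tried. With the settings used throughout, 0 of the 716 reached 2-fold downward.

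**Figure D4:**
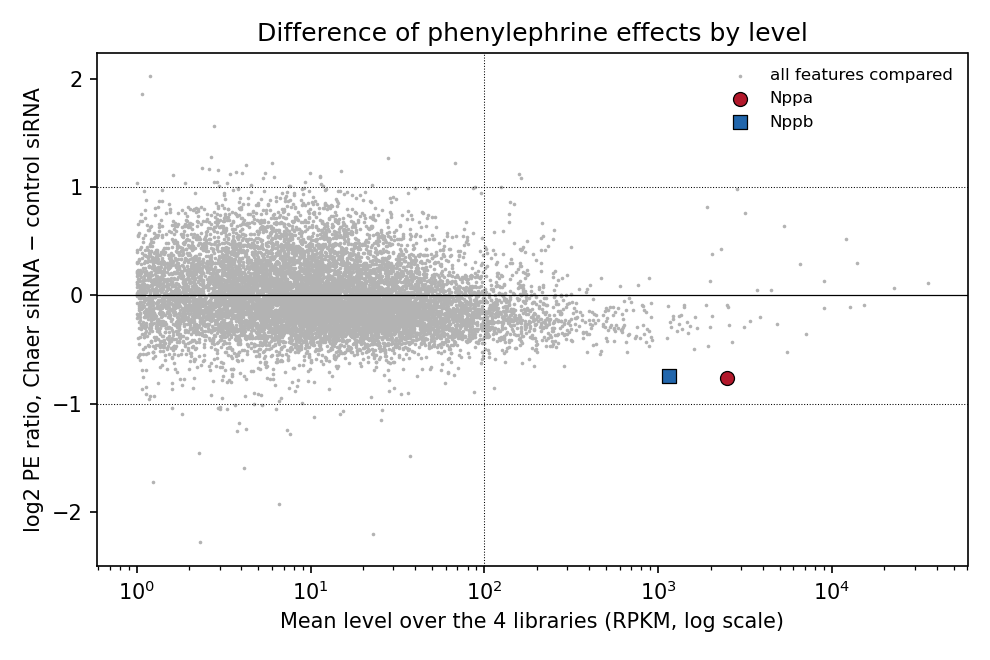
Difference of the log2 phenylephrine (PE) ratios of (RPKM + 1), Chaer siRNA minus control siRNA, against the mean level over the 4 libraries in RPKM on a log scale, for all 12226 features (grey), Nppa and Nppb. Dotted lines mark 2-fold and 100 RPKM; the pair (-0.76 and -0.74) lies near the lower edge of the abundant features, whose median was -0.19.

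The balance within the pair was read inside each library, where scaling between libraries has no part. Nppb had 0.490 of the RPKM of Nppa in siChaer PE (0.485 to 0.494), 0.457 in siNeg PE (0.452 to 0.463), 0.401 in siChaer (0.392 to 0.410) and 0.379 in siNeg (0.365 to 0.393). Nppa was thus the more abundant transcript throughout, and the balance leaned furthest towards Nppb in siChaer PE. The intervals of siChaer and siNeg overlapped, and those of the other libraries did not. Compared directly, the balance in siChaer was 1.06 times that in siNeg (1.01 to 1.10), a counting interval that leaves out equal balance.

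The phenylephrine fold of Nppb exceeded that of Nppa by a like factor under both siRNAs. The factor was 1.22 (1.19 to 1.25) with Chaer siRNA and 1.21 (1.16 to 1.25) with control siRNA. For the siRNA itself, the fold of Nppb was 1.07 times that of Nppa (1.05 to 1.09) with phenylephrine and 1.06 times (1.01 to 1.10) without it. By arithmetic, these factors are ratios of the balances given above, so they are no separate result. The change in the phenylephrine fold between the siRNAs, Nppb over Nppa, was a factor of 1.01 (0.967 to 1.06), an interval that holds equal change of the pair.

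Each gene had the other as the feature nearest to it in pattern. Likeness was measured over the 4 libraries, as the root mean square difference of log2(RPKM + 1) after centring each feature on its own mean, and it was 0.15 between Nppa and Nppb. The median distance from all other 12225 features was 1.46 for Nppa and 1.60 for Nppb, and within 0.25 of either gene there was 1 feature, the other of the pair. This distance is not scaled for the size of a response. A feature that hardly changed thus lies far from both genes, whatever its pattern. The next features, named after their values were seen, were ENSRNOG00000000875 and ENSRNOG00000013621 for both genes. The first of them stood at 0.37 from Nppa and 0.46 from Nppb. It had 1234 RPKM in siChaer PE, 1279 RPKM in siNeg PE, 247 RPKM in siChaer and 195 RPKM in siNeg. Like the pair it was higher with phenylephrine, but its log2 ratios for Chaer siRNA were -0.05 with phenylephrine and 0.34 without it. ENSRNOG00000013621 stood at 0.37 from Nppa and 0.50 from Nppb, and had 65.1 RPKM in siChaer PE, 37.7 RPKM in siNeg PE, 18.8 RPKM in siChaer and 7.53 RPKM in siNeg. Its log2 ratios for Chaer siRNA were 0.77 with phenylephrine and 1.22 without it, so that it was past 2-fold in unstimulated cells and short of it in stimulated cells, as the pair was. Its phenylephrine ratios were 1.74 with Chaer siRNA and 2.18 with control siRNA, a difference of -0.44. The likeness of both features to the pair is no separate support, because they were picked by their values in these same libraries.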

How the data were processed

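RNA from 4 libraries of neonatal rat ventricular myocytes, 1 per group, was sequenced from stranded TruSeq libraries, per the labels' protocols. Per the submitters' processing notes, reads were aligned with TopHat2 to rn5; for the counting tool, annotation release and strand setting, the entry is: not given in the sources used here. As deposited, per the file headers, the files hold whole-number read counts and RPKM values for each feature. The members, lists and alternatives were chosen with earlier results of these data known.

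Dividing counts by RPKM gave each library's read total (35314303 to 40835172) and the gene lengths, within 8.81e-08 bp of whole numbers for features with many reads; 3.88% to 4.29% of those reads were outside the listed features. Ratios were taken as log2 of (RPKM + 1) over the 12226 features whose mean RPKM reached 1, and a size of at least 2-fold was counted. Named were the 2 genes and the features nearest to them in pattern. Counting intervals at 95% were exact Poisson for levels, exact binomial for ratios and shares, and a normal approximation for differences of effects and of gains and for the factor between the folds of the 2 genes. A library with 0 reads would allow up to 3 reads, 0.0735 to 0.0850 RPKM for a gene of 1 kb. The size rule was tested on simulated data. Alternatives were pseudocounts of 0.1 and 5, no filter or a mean RPKM of at least 5, a 1.5-fold rule, TMM scaling (edgeR 4.0.16, used for scaling only), median-ratio scaling and scaling by the reads outside the 20 features with most reads. Python 3.11.15, pandas 2.3.3 and SciPy 1.17.1 were used. The planned lists of pathway genes and cell type markers could not be applied, and no protein sequence was used here.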

Additional observations from a re-analysis of the deposited data

How the results depend on the processing

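Nppa and Nppb kept their direction in all 5 comparisons and their side of 2-fold under the 2 other pseudocounts and 3 other scalings, and the order of the libraries was the same under each. The gain in RPKM with Chaer siRNA was larger than with control siRNA under each scaling. Moves past the counting interval came from the scalings alone. With TMM scaling, the log2 ratios for phenylephrine were 2.41 (Nppa) and 2.70 (Nppb) with Chaer siRNA and 3.15 and 3.42 with control siRNA, and those for Chaer siRNA with phenylephrine were 0.48 and 0.58. This scaling moved the median of all features by 0.10 for phenylephrine with Chaer siRNA. Relative to that median Nppa was 2.41 and Nppb 2.69 higher. With the RPKM as deposited, the values relative to the median were 2.39 and 2.68, from log2 ratios of 2.29 and 2.58. With median-ratio scaling the phenylephrine ratios were 2.40 and 2.69 with Chaer siRNA and 3.13 and 3.39 with control siRNA, those for Chaer siRNA with phenylephrine 0.51 and 0.61, and the difference of the phenylephrine effects -0.72 for Nppa. With scaling by the reads outside the 20 features with most reads, the phenylephrine ratios with control siRNA were 2.99 and 3.26, those for Chaer siRNA 0.44 with phenylephrine for Nppa and 1.14 (Nppa) and 1.22 (Nppb) without it, and the differences of effects -0.70 and -0.68.

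The number of features at least 2-fold apart depended on the measure. It was 241 for phenylephrine with Chaer siRNA (424 with a pseudocount of 0.1, 96 with a pseudocount of 5 and 1245 by the 1.5-fold rule) and 211 with control siRNA (351, 93 and 924 in that order). It was 226 for Chaer siRNA with phenylephrine (433, 84 and 1074), 261 without phenylephrine (463, 92 and 1363) and 66 for the difference of effects (205, 10 and 751, and 32 with a mean RPKM of at least 5).

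No paired analysis was possible because there was only 1 library in a group. Leaving out a library was not run, since it removes a whole group. Depth does not limit the values of the pair, whose fewest reads were 3778; variation between cultures was not measured.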
